A study of Mus musculus with 16 samples.

Results

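The genes described here are 50 interferon-stimulated antiviral effector genes, that is, genes whose products restrict viruses or intracellular microbes and that cells switch on when they sense interferon. They were taken as a fixed list of gene symbols, chosen with earlier results of these data known. The symbols were looked up in the TPM table and matched by Ensembl gene ID to the count table. A member needed a level of 1 CPM (counts scaled to the size of the library) or more in 4 or more of the 16 libraries. All 50 were found and all 50 met that level, among 13234 genes that met it and 54393 genes in the count table. The cells were mIMCD3, a wild-type epithelial line from the kidney inner medulla of a mouse that carried a simian virus SV40 transgene, so every group shares that origin. They were grown for 10 days on permeable filters, then received doxycycline (DOX) at 2 µg/mL or its solvent DMSO, with medium renewed daily, for 3 or 6 days. This gives 4 groups of 4 libraries each: DMSO for 3 days, DOX for 3 days, DMSO for 6 days and DOX for 6 days. Poly(A) RNA was sequenced, and the comparison of DOX with its solvent asks what this antibiotic, widely used as a switch for inducible transgenes, does by itself to gene expression in a line without such a transgene. The labels number the replicates and do not say whether they were separate cultures, so p-values measure the spread between these libraries, which may be technical in part. All libraries come from 1 cell line, and the labels give no group a drug other than DOX. By the authors' methods the medium, which was not varied between groups, also contained hydrocortisone, epinephrine, gentamicin and amphotericin B. Whether these act together with DOX was not tested.

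Interferons bind receptors that signal through the JAK kinases. Type I and III interferons activate a transcription factor complex that contains IRF9 and binds a DNA element called the interferon-stimulated response element, ISRE. The induced proteins act at many points of an infection. Some of them bind or degrade foreign RNA (IFIT proteins, 2-5A synthetases, the kinase PKR). Others block viral budding (tetherin) or make a chain-terminating nucleotide (viperin). Some are large or small GTPases that attack the vacuoles of microbes, and some regulate the response itself (ISG15 and its proteases). Many of them are expressed at a low tonic level in epithelial cells without infection.

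Total estimated counts ran from 16933343 to 23960860 per library, so that 3 counts correspond to between 0.125 and 0.177 CPM. Correlations of log2 CPM between replicates of a group ranged from 0.981 to 0.992. Epithelial markers (Krt8, Krt18, Epcam, Cdh1, Cldn4, Cldn7, Tjp1) were abundant and summed to between 2164 and 2628 TPM (a level per transcript length, scaled to the library) in the DMSO libraries and between 1597 and 1860 TPM in the DOX libraries. At 3 days 2 of these 7 were called lower in DOX, and at 6 days 4 of 7, and the part of this shift in the results below was not tested. The 7 defining markers of collecting duct principal cells (Aqp2, Aqp3, Aqp4, Avpr2, Scnn1b, Scnn1g, Slc14a2) summed to no more than 2.96 TPM in any library, and 5 of the 7 stayed under 0.5 TPM in all 16, so that these defining markers were at or near 0. Of 8 leukocyte markers, 7 stayed under 0.5 TPM in all 16 libraries and their sum without Csf1r was at most 0.486 TPM. Csf1r was lower in DOX at both times, and the whole list summed to between 6.19 and 10.8 TPM in DMSO against 2.90 to 6.23 TPM in DOX. Fibroblast and endothelial lists summed to at most 1.15 and 1.26 TPM. In RNA from a whole well, fewer cells of a kind and less RNA per cell cannot be told apart.

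The antiviral genes were already expressed in cells that received only DMSO. Their median level was 29.6 TPM over the 8 DMSO libraries. At 100 TPM or more stood 9 of the 50, 33 lay between 10 and 100 TPM, and 8 were below 10 TPM. The 3 most abundant were Ifi27, a small mitochondrial and nuclear membrane protein, at 731 ± 66.6 TPM (SD over the 8 DMSO libraries), Bst2, which encodes tetherin, at 519 ± 31.4 TPM, and Isg15, the ubiquitin-like modifier, at 235 ± 27.7 TPM. The libraries of Ifi27 and Bst2 did not overlap in TPM, nor did those of Bst2 and Isg15, whereas Isg15 and the next gene, Ifit3 at 218 ± 15.2 TPM, did. Then followed Oasl2, Xaf1, Rtp4, Ifi44 and Isg20, the last at 102 ± 4.27 TPM, and among these 5 only the neighbours Rtp4 and Ifi44 had no overlap of their libraries. At the low end, Iigp1, Ifi203, Tgtp1, Tgtp2 and Mx1 were under 3 TPM, with Mx1 at 0.960 ± 0.682 TPM.

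Members with a call were higher with DOX at both times, and there were more of them at 6 days. At 3 days 23 of the 50 members were called higher in DOX than in DMSO and 0 were called lower. At 6 days 38 were called higher and 0 lower. A call here is an adjusted p under 0.05 in edgeR's quasi-likelihood test against a fold change of 1.2, over all 13234 genes. Among all tested genes the share called higher was 5.30% at 3 days and 10.0% at 6 days, and the share called lower was 7.22% and 11.6%. The members were chosen with earlier results of these data known, so their excess over these shares is a description and not independent of these data. The count of 0 lower members also holds at an unadjusted p under 0.05, with DESeq2 and with limma on TPM, whereas without the fold-change threshold 2 members were called lower at each time (Oas2 and Eif2ak2 at 3 days, Eif2ak2 and Isg20 at 6 days). The median log2 fold change (the base-2 logarithm of the ratio of DOX to DMSO) over the 50 members was 0.33 at 3 days and 0.58 at 6 days, against medians of 0.0031 and -6e-04 over all tested genes.

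The calls at 3 days depended on the scale. On log2(TPM + 1) with limma only 4 members were called higher at 3 days and 25 at 6 days, each of them among those called on counts. The 4 at 3 days were Isg15, Usp18, Ifi44 and Ifi211, and of the members given by library below Lgals3bp, Adar and Isg15 lost the call at 6 days. On that scale the median of all tested genes itself lay at -0.15 at 3 days and -0.05 at 6 days, the members' medians were 0.12 and 0.50, and 35 and 44 of the 50 had a positive log2 fold change, compared with 42 and 44 on counts. With the library medians of log2(TPM + 1) made equal, an alternative chosen after the data were seen, limma called 16 members higher at 3 days and 31 at 6 days, and the members' medians were 0.33 and 0.56.

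Libraries separated in the same way. All 4 DOX libraries stood above all 4 DMSO libraries for 31 members at 3 days and 41 at 6 days, compared with 18.8% and 22.1% of all tested genes. All 4 stood below for 2 members at 3 days, Oas2 and Eif2ak2, and for 0 at 6 days, compared with 19.8% and 20.9% of all genes. As a mean of log2 CPM over the 50 members, the DMSO libraries ranged from 5.77 to 5.89 at 3 days and from 5.71 to 5.77 at 6 days. The DOX libraries ranged from 6.12 to 6.19 at 3 days and from 6.28 to 6.43 at 6 days. No DOX library overlapped a DMSO library on this mean, and those of DOX at 6 days were all above those of DOX at 3 days.

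**Figure D1:**
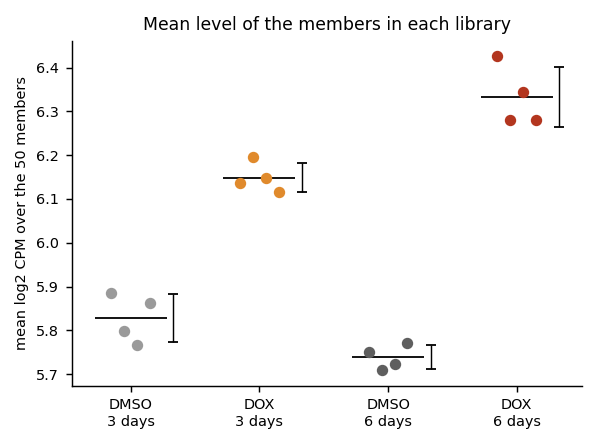
Mean log2 CPM over the 50 members (vertical axis, which does not start at 0) in each of the 16 libraries, by group. Points are libraries, horizontal lines are group means and bars are 1 SD. The DOX libraries lie between 6.12 and 6.43 and the DMSO libraries between 5.71 and 5.89.

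Both calls passed for 22 members. Called at 3 days alone was 1 member, Rtp4, and at 6 days alone 16. The difference between times, tested below, was called for 12 of these 16 and not for Rtp4. Called at neither time were 11: Ifit2, Ifit3, Ifit3b, Oas2, Oas3, Eif2ak2, Tgtp1, Tgtp2, Isg20, Ifi27 and Samd9l. In DMSO the members called at 6 days had a median level of 24.3 TPM and those not called 57.0 TPM, so the genes without a call were not, as a group, the least expressed. Between DMSO at 6 days and DMSO at 3 days 0 members were called, and in all genes the share called was 0%. At an unadjusted p under 0.05 there were 5 members, all lower at 6 days (Oas2, Mx1, Iigp1, Ifi203 and Parp14), DESeq2 and limma called 0, and without a fold-change threshold 4 were called, Oas2, Parp14 and Trim30a lower and Usp18 higher at 6 days.

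**Figure D2:**
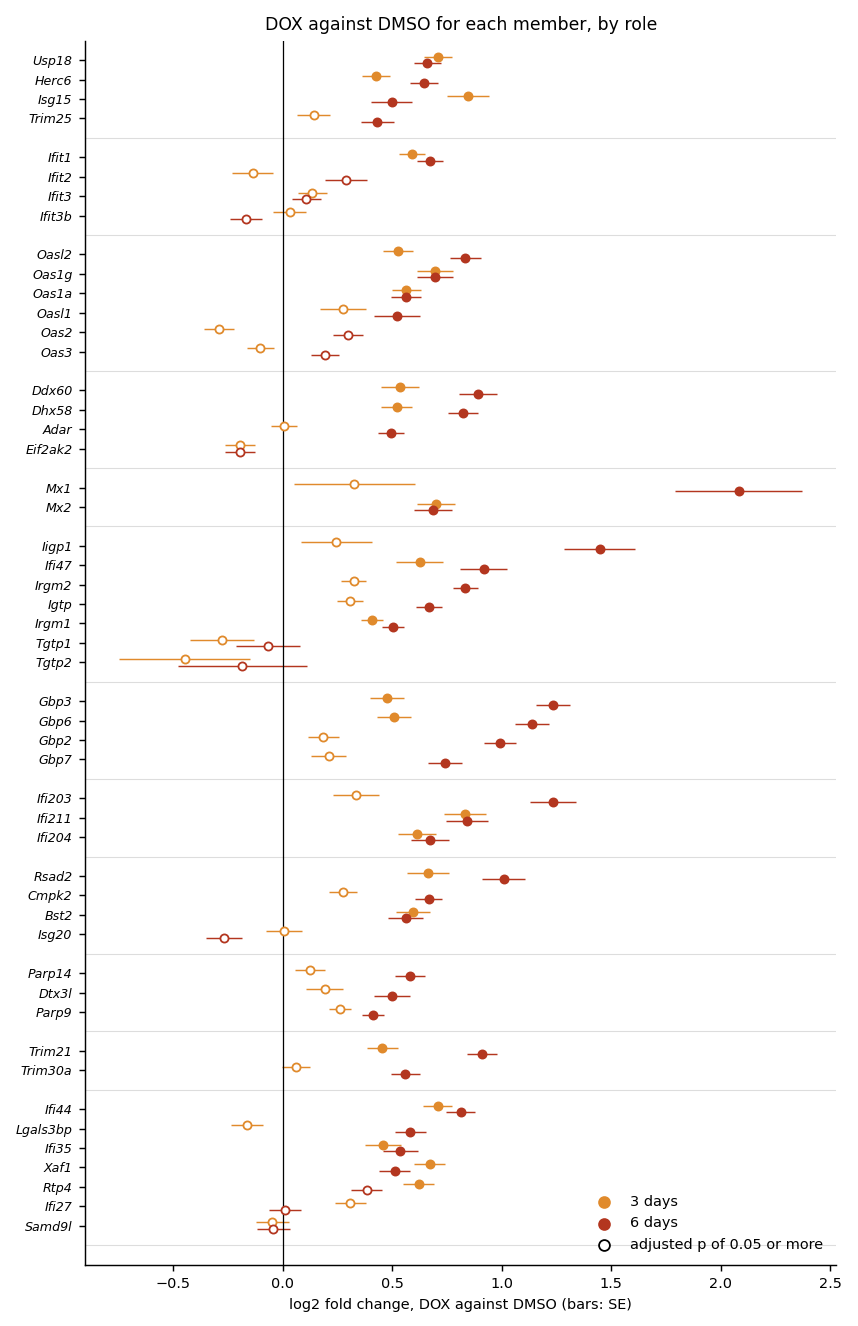
Log2 fold change of DOX against DMSO (horizontal axis) for each of the 50 members at 3 days (orange) and 6 days (red), in blocks by role. Bars are SE and filled points have an adjusted p under 0.05. At 6 days 38 points are filled and all of them lie to the right of 0.

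Promoter sequence was available for part of the list. RefSeq (GRCm38.p6) gave a promoter, the 250 bases before the annotated start, for 38 of the 50 members. The core of the ISRE was searched as the letters TTTCNNTTTC on either strand, which reads GAAANNGAAA on the other. It occurred in 21 of these 38, or 55.3%, compared with 3.46% of the 27025 genes of the promoter table and 3.13% of 9802 tested genes. Among the 21 members with the letters 10 were called higher at 3 days and 16 at 6 days, and among the 17 with a promoter that lacks them 7 and 13. A match of letters is a description and does not show that a factor binds there. The windows below belong to members described with library values and to near-identical copies, each 5′ to 3′ on the gene's own strand, with the matching letters in capitals and overlapping matches run together. All lie before the annotated gene.
Isg15 (chr4:156200863-156200908, minus strand): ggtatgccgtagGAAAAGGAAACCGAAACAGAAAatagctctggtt
Bst2 (chr8:71537575-71537614, minus strand): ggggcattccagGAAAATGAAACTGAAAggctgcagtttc
Rsad2 (chr12:26456551-26456584, minus strand): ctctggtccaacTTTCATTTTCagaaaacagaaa
Ddx60 (chr8:61928022-61928086, plus strand): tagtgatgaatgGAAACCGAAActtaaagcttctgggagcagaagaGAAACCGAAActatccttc
Gbp3 (chr3:142559987-142560025, plus strand): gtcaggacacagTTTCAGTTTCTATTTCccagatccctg
Ifi211 (chr1:173913062-173913095, minus strand): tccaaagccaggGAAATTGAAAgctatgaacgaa
Oas1a (chr5:120907526-120907557, minus strand): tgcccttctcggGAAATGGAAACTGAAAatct
Oas1g (chr5:120887614-120887643, minus strand): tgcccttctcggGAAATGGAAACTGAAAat
Ifit3 (chr19:34583361-34583428, plus strand): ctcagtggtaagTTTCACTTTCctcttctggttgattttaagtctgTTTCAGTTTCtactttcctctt
Ifit3b (chr19:34607757-34607824, plus strand): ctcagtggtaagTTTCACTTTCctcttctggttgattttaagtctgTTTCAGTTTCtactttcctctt

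Isg15 carries 3 overlapping matches whose first base is 78 bases before the start, and Ddx60 carries 2 that are separate from each other. The capitals of Oas1a and Oas1g are identical, as are the whole windows of Ifit3 and Ifit3b. Both Oas1 genes were called higher at both times and neither Ifit3 gene was called at either time, so the letters alone did not separate members with a call from members without one.

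Isg15 encodes a ubiquitin-like protein that is attached to viral and host proteins, Usp18 the protease that removes it and also restrains the type I receptor, and Herc6 and Trim25 are ubiquitin-type ligases, Herc6 being the ligase for ISG15 in the mouse. Of these 4, 3 were called higher at 3 days and 4 at 6 days. Isg15 stood at 105, 118, 108 and 101 CPM in DMSO and 174, 201, 198 and 205 CPM in DOX at 3 days. At 6 days its libraries were at 144, 111, 101 and 101 CPM in DMSO and 174, 151, 173 and 146 CPM in DOX. The groups did not overlap at either time, although 1 DMSO library at 6 days, replicate 1, came within a few CPM of the lowest DOX library. The log2 fold change of Isg15 was 0.85 (SE 0.0952, adjusted p = 2.61e-05) at 3 days in edgeR, and at 6 days it was 0.50 (SE 0.0949, adjusted p = 0.0154). The call at 6 days was lost with DESeq2, at an adjusted p of 0.116, and when DMSO replicate 3 or 4 was left out. Usp18 rose by similar amounts, 0.71 and 0.66 on the log2 scale, while Herc6 moved from 0.43 to 0.64 and Trim25 from 0.14, not called, to 0.43. DESeq2 did not call Herc6 at 3 days or Trim25 at 6 days. Limma on log2(TPM + 1) called neither Herc6 nor Trim25 at 6 days. Herc6 shares 13.66% of its exon bases with Gm45193 on the same strand, so its count is less certain.

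The IFIT proteins bind RNA with foreign 5′ ends and stop its translation. Of 4 members 1 was called higher at each time, Ifit1, with log2 fold changes of 0.59 and 0.67. Ifit2, Ifit3 and Ifit3b had log2 fold changes between -0.14 and 0.14 at 3 days and between -0.17 and 0.29 at 6 days, none of which passed. Ifit3 and Ifit3b share 41.11% and 35.67% of the 75-base windows of their longest transcripts with other genes, so reads may have been divided between them.

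The 2-5A synthetases make a short oligoadenylate that activates RNase L, and the OAS-like proteins are relatives that act in other ways. Of 6 members 3 were called higher at 3 days (Oas1a, Oas1g and Oasl2) and 4 at 6 days, when Oasl1 joined them at a log2 fold change of 0.52. Oasl2, one of the most abundant members, stood at 267, 304, 246 and 284 CPM in DMSO and 417, 398, 409.95 and 360.3 CPM in DOX at 3 days. By 6 days it stood at 295, 271, 277 and 264 CPM in DMSO and 537, 459, 486 and 492 CPM in DOX. The lowest DOX library was above the highest DMSO library each time. Log2 fold changes of Oasl2 were 0.53 (SE 0.0689, adjusted p = 0.00175) and 0.83 (SE 0.0691, adjusted p = 1.41e-07) in edgeR. Oas1g was at 32.1, 28.7, 28.6 and 28.4 CPM in DMSO and 44.4, 46.9, 50.2 and 49.1 CPM in DOX at 3 days, and at 35.5, 28.5, 28.1 and 25.04 CPM in DMSO and 50.96, 46.6, 48.6 and 43.8 CPM in DOX at 6 days. Its groups did not overlap, and its edgeR log2 fold changes were nearly the same at both times, 0.70 (SE 0.0825, adjusted p = 0.000101) and 0.70 (SE 0.0824, adjusted p = 3.86e-05). Oas1a moved by 0.57 and 0.56. These 2 genes share 44.61% (Oas1g) and 47.6% (Oas1a) of their 75-base windows with other genes.

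Oas2 behaved differently in time. Its libraries were at 33.2, 36.04, 30.7 and 39.6 CPM in DMSO and 28.04, 27.1, 29.9 and 29.5 CPM in DOX at 3 days. At 6 days they were at 25.7, 25.9, 24.4 and 25.7 CPM in DMSO and 32.5, 30.3, 32.2 and 30.1 CPM in DOX. All DOX libraries were below all DMSO libraries at 3 days and above them at 6 days, and the DMSO group itself was lower at 6 days. Neither log2 fold change passed the threshold test, -0.29 at 3 days and 0.30 at 6 days, but without the threshold both did, with adjusted p = 0.0019 and 0.00114. The difference between them was called, at 0.59 (SE 0.0976, adjusted p = 0.000854) in edgeR. Over the 6 days in DMSO the level of Oas2 changed by -0.46 against 3 days and in DOX by 0.13. Oas3 had -0.10 and 0.19, neither called.

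Eif2ak2 encodes PKR, the kinase that halts translation on double-stranded RNA, Adar an enzyme that edits such RNA and limits its sensing, and Ddx60 and Dhx58 (LGP2) are helicases of the sensing pathway. Of these 4, 2 were called higher at 3 days and 3 at 6 days. Ddx60 was at 51.3, 61.1, 45.3 and 60.3 CPM in DMSO and 87.7, 78.1, 78.9 and 72.7 CPM in DOX at 3 days. The libraries of 6 days were at 51.3, 45.8, 53.7 and 56.3 CPM in DMSO and 106, 90.3, 92.8 and 95.04 CPM in DOX. Groups did not overlap, and log2 fold changes were 0.54 (SE 0.0867, adjusted p = 0.00629) and 0.89 (SE 0.0867, adjusted p = 9.66e-07) by edgeR. Dhx58 stood at 38.3, 41.1, 38.6 and 40.04 CPM in DMSO and 61.2, 54.7, 55.9 and 55.4 CPM in DOX at 3 days, then at 49.1, 38.5, 44.8 and 40.5 CPM in DMSO and 78.8, 69.3, 77.1 and 80.7 CPM in DOX at 6 days. Again no DOX library reached down to DMSO, and edgeR gave log2 fold changes of 0.52 (SE 0.0708, adjusted p = 0.00235) and 0.82 (SE 0.0698, adjusted p = 2.14e-07).

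Adar was at 129, 142, 139 and 151 CPM in DMSO and 155, 135, 137 and 135 CPM in DOX at 3 days, where the groups overlapped. After 6 days the level was 124, 123, 128 and 123 CPM in DMSO and 167, 166, 182 and 187 CPM in DOX, without overlap. The edgeR log2 fold change was 0.01 (SE 0.0595) at 3 days, and at 6 days it was 0.49 (SE 0.0595, adjusted p = 0.000759). Adar shares 16.81% of its exon bases with Chrnb2 on the opposite strand. Eif2ak2 was not called at either time, with -0.19 and -0.20, although all 4 DOX libraries were below all 4 DMSO libraries at 3 days.

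The Mx proteins are dynamin-like GTPases that trap viral components. Mx2, annotated here as a polymorphic pseudogene, was at 33.8, 27.4, 29.6 and 31.5 CPM in DMSO and 54.98, 49.5, 51.03 and 42.8 CPM in DOX at 3 days. At 6 days it was at 38.95, 31.1, 30.4 and 29.8 CPM in DMSO and 56.6, 50.8, 50.9 and 50.96 CPM in DOX. The groups did not overlap, with edgeR log2 fold changes of 0.70 (SE 0.0878, adjusted p = 0.000168) and 0.69 (SE 0.0871, adjusted p = 9.25e-05). Mx1 had the largest log2 fold change of all members at 6 days and is shown for that reason, chosen after its values were seen. Its counts, before scaling, were 52, 16, 40 and 38 in DMSO and 48, 45, 44 and 45 in DOX at 3 days, and 19, 19, 16 and 17 in DMSO and 89, 80, 93 and 73 in DOX at 6 days. At 6 days every DOX library had more than every DMSO library, on counts that were below 100. The log2 fold change was 2.08 (SE 0.29, adjusted p = 1.69e-05) in edgeR at 6 days and 0.33, not called, at 3 days. Mx1 does not reach 1 CPM in all 16 libraries and drops out under that filter.

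Immunity-related GTPases guard and disrupt the vacuoles of intracellular microbes, Irgm1, Irgm2 and Igtp being regulators and Iigp1, Tgtp1, Tgtp2 and Ifi47 effectors or relatives. Of 7 members 2 were called higher at 3 days (Ifi47 and Irgm1) and 5 at 6 days, which adds Igtp, Irgm2 and Iigp1. Ifi47 was at 8.76, 6.81, 9.62 and 9.64 CPM in DMSO and 12.4, 13.9, 14.3 and 13.002 CPM in DOX at 3 days. By 6 days it stood at 7.33, 7.96, 8.18 and 6.91 CPM in DMSO and 16.5, 14.6, 13.7 and 12.7 CPM in DOX. These groups stood apart at both times, with edgeR log2 fold changes of 0.63 (SE 0.107, adjusted p = 0.00416) and 0.92 (SE 0.108, adjusted p = 8.86e-06). Irgm2 was at 34.2, 32.8, 32.6 and 36.1 CPM in DMSO and 43.1, 44.9, 40.9 and 41.1 CPM in DOX at 3 days, and at 30.6, 33.7, 30.98 and 32.4 CPM in DMSO and 56.5, 57.3, 57.8 and 56.2 CPM in DOX at 6 days. Its DOX libraries were above DMSO at both times and further above at 6 days. The edgeR log2 fold change was 0.32 (SE 0.0557, adjusted p = 0.224) at 3 days, short of a call, and 0.83 (SE 0.0552, adjusted p = 5.81e-09) at 6 days. With an offset for GC content and length, added after the data were seen, Irgm2 was also called at 3 days (adjusted p = 0.00142).

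Iigp1 had the second largest fold change at 6 days, and is also shown because its values were seen. Its counts were 147, 135, 150 and 214 in DMSO and 178, 223, 162 and 174 in DOX at 3 days, and 94, 90, 108 and 155 in DMSO and 332, 414, 328 and 294 in DOX at 6 days. The groups overlapped in CPM at 3 days and not at 6 days, with an edgeR log2 fold change of 1.45 (SE 0.162, adjusted p = 2.32e-06) at 6 days. Igtp and Irgm1 had 0.67 and 0.50 at 6 days. Tgtp1 and Tgtp2 lay between -0.45 and -0.07 over both times and did not pass. They share 87.7% and 85.16% of their 75-base windows with other genes, for the most part with each other, and these are the highest shares of the list, so that their counts are uncertain. Igtp and Irgm2 share 162 exon bases on the same strand, Tgtp1 shares 223 with Gm12185 and Ifi47 shares 111 with Olfr56.

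The guanylate-binding proteins are large GTPases that coat microbial vacuoles, and in the mouse Gbp2, Gbp3 and Gbp7 lie near each other on chromosome 3. All 4 members were higher at 6 days and 2 at 3 days, Gbp3 and Gbp6. Gbp3 was at 28.4, 27.4, 24.8 and 30.4 CPM in DMSO and 35.7, 41.3, 38.3 and 39.1 CPM in DOX at 3 days. The libraries of 6 days were at 23.003, 19.9, 22.6 and 25.4 CPM in DMSO and 58.3, 51.95, 54.7 and 48.9 CPM in DOX. DOX was above DMSO in every library at both times, and the gap was wider at 6 days. Its edgeR log2 fold changes were 0.48 (SE 0.0781, adjusted p = 0.0148) and 1.23 (SE 0.0784, adjusted p = 7.48e-10), and the 3-day call was lost with DESeq2 (adjusted p = 0.105) and when DMSO replicate 3 or DOX replicate 2 was left out. Gbp6 went from 12.9, 12.7, 10.7 and 12.4 CPM in DMSO to 17.1, 19.4, 17.5 and 15.3 CPM in DOX at 3 days. At 6 days the libraries were at 12.3, 10.8, 11.8 and 11.5 CPM in DMSO and 26.03, 25.2, 24.6 and 25.9 CPM in DOX. This is also a separation at both times, with edgeR log2 fold changes of 0.51 (SE 0.0793, adjusted p = 0.00728) and 1.14 (SE 0.0779, adjusted p = 3.19e-09), the first lost with DESeq2 (adjusted p = 0.0634). It shares 28.99% of its exon bases with Gm43302 on the same strand and 55.17% of its 75-base windows with other genes.

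Gbp2 showed the clearest difference between times by p. Its libraries were at 29.3, 26.2, 28.9 and 28.7 CPM in DMSO and 31.9, 30.4, 31.3 and 34.8 CPM in DOX at 3 days. At 6 days they were at 21.2, 21.9, 21.99 and 26.1 CPM in DMSO and 43.98, 46.98, 48.9 and 41.6 CPM in DOX. The 3-day groups were apart by a small gap and the 6-day groups by a wide one. In edgeR the log2 fold change was 0.19 (SE 0.0723), not called, at 3 days, and at 6 days it was 0.99 (SE 0.0721, adjusted p = 1.26e-08). Gbp7 had 0.21 and 0.74, and 11.35% of its exon bases overlap Gm43802, a processed pseudogene, on the same strand.

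PYHIN proteins bind DNA in the nucleus and cytosol. All 3 members were called higher at 6 days and 2 at 3 days. Ifi211 was at 57.5, 58.8, 54.2 and 51.1 CPM in DMSO and 77.5, 114, 98.4 and 104 CPM in DOX at 3 days. After 6 days the level was 49.6, 60.4, 50.8 and 62.5 CPM in DMSO and 109.8, 97.2, 98.6 and 94.9 CPM in DOX. Its groups were apart at both times with about the same change, 0.83 (SE 0.0975, adjusted p = 4.26e-05) and 0.84 (SE 0.0973, adjusted p = 1.41e-05) by edgeR, and 63.59% of its 75-base windows are shared with other genes. Ifi203, the least abundant of the 3, was at 8.45, 8.27, 7.56 and 8.86 CPM in DMSO and 9.21, 10.5, 9.98 and 12.2 CPM in DOX at 3 days, and at 5.65, 5.84, 6.17 and 7.12 CPM in DMSO and 16.7, 13.96, 15.03 and 12.7 CPM in DOX at 6 days. The groups did not overlap at either time, and the log2 fold change in edgeR was 0.34 (SE 0.105, adjusted p = 0.362) at 3 days, which is no call, and 1.23 (SE 0.106, adjusted p = 6.49e-08) at 6 days. Ifi204 rose by 0.62 and 0.67. Ifi203 shares 37 exon bases with Mndal on the same strand.

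Rsad2 encodes viperin, which makes a chain-terminating nucleotide from CTP, its neighbour Cmpk2 supplies the nucleotide, Isg20 is an exonuclease of single-stranded RNA and Bst2 tethers budding virions. Of these 4, 2 were called higher at 3 days and 3 at 6 days. Rsad2 was at 126, 102, 98.7 and 113 CPM in DMSO and 201, 176, 170.6 and 148 CPM in DOX at 3 days. At 6 days it was at 123, 91.1, 102 and 97.003 CPM in DMSO and 221, 201, 217 and 191 CPM in DOX. Its groups were apart at both times, with edgeR log2 fold changes of 0.67 (SE 0.0971, adjusted p = 0.00102) and 1.01 (SE 0.0973, adjusted p = 1.01e-06). Bst2 was at 263, 279, 248 and 249 CPM in DMSO and 329, 432, 397 and 412 CPM in DOX at 3 days, and at 284, 251, 239 and 229 CPM in DMSO and 395, 337, 375 and 377 CPM in DOX at 6 days. The separation of Bst2 was about equal at both times, 0.60 (SE 0.0797, adjusted p = 0.000835) and 0.56 (SE 0.0797, adjusted p = 0.000976) in edgeR. Cmpk2 went from 0.27, not called, to 0.67. Isg20 had 0.01 and -0.27 and was not called.

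Parp9, Parp14 and Dtx3l act in ADP-ribosylation and ubiquitylation linked to the interferon response. At 3 days edgeR called 0 of 3, with 0 also at an unadjusted p under 0.05 and with DESeq2, and Parp9 was called when no threshold was set. At 6 days 3 of 3 were higher, with log2 fold changes between 0.41 and 0.58. Limma on log2(TPM + 1) called none of the 3 at 6 days. DESeq2 did not call Dtx3l, and limma with library medians made equal called neither Parp9 nor Dtx3l. Parp9 and Dtx3l share 458 exon bases on opposite strands, and Parp14 shares 110 with Gm49730 on the same strand.

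**Figure D3:**
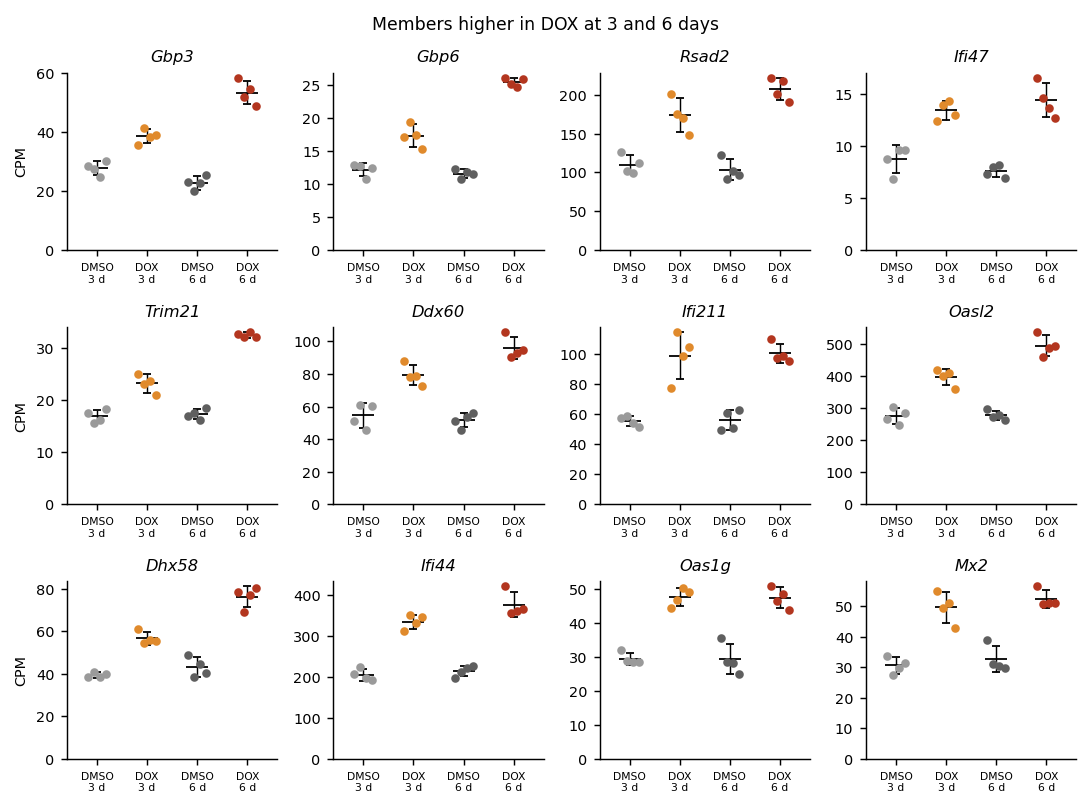
CPM (vertical axis from 0) of the 12 members called higher at both times with the largest change at 6 days, in each of the 16 libraries by group. Points are libraries, short lines are means and bars are 1 SD. In all 12 panels the DOX libraries lie above the DMSO libraries of the same time.

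Trim21 is a cytosolic antibody receptor and ubiquitin ligase, and Trim30a a relative that restrains inflammatory signalling. Trim21 was at 17.6, 15.7, 16.2 and 18.4 CPM in DMSO and 25.1, 23.2, 23.8 and 20.9 CPM in DOX at 3 days. By 6 days it stood at 16.96, 17.6, 16.2 and 18.5 CPM in DMSO and 32.8, 32.2, 33.2 and 32.2 CPM in DOX. Libraries of DOX were above DMSO at both times, with edgeR log2 fold changes of 0.45 (SE 0.0702, adjusted p = 0.0147) and 0.91 (SE 0.0687, adjusted p = 2.70e-08). The call at 3 days was lost with DESeq2 and with the GC content and length offset. It was also lost without a filter on low counts and without 1 DMSO library. In these fits log2 fold changes were no lower than 0.41. Limma lost the call too, at 0.26 on log2(TPM + 1), 0.28 on log2(TPM + 0.1) and 0.47 with library medians made equal. Trim30a was called at 6 days, at 0.56, and not at 3 days, at 0.06.

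The 7 remaining members have varied roles. Of them 4 were called higher at each time, Ifi35, Ifi44 and Xaf1 at both, Rtp4 at 3 days and Lgals3bp at 6 days. Ifi44, a protein of unsettled function that slows proliferation, was at 208, 226, 196 and 192 CPM in DMSO and 314, 351, 331 and 347 CPM in DOX at 3 days. The libraries of 6 days were at 197, 213, 221 and 227 CPM in DMSO and 422, 356, 362 and 367 CPM in DOX. Groups were far apart, with edgeR log2 fold changes of 0.71 (SE 0.0673, adjusted p = 7.12e-06) and 0.81 (SE 0.0673, adjusted p = 1.63e-07). Lgals3bp, a secreted glycoprotein that binds galectin-3, was at 103, 119, 109 and 124 CPM in DMSO and 114, 99.97, 98.3 and 94.7 CPM in DOX at 3 days, and at 104, 90.9, 92.8 and 89.8 CPM in DMSO and 132, 132, 151 and 152 CPM in DOX at 6 days. At 3 days the groups overlapped, with DOX lower on average, and at 6 days every DOX library was higher. The edgeR log2 fold change was -0.16 (SE 0.0729), not called, at 3 days, and at 6 days it was 0.58 (SE 0.0728, adjusted p = 0.000237).

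Ifi27, the most abundant member, was at 345, 341, 337 and 309 CPM in DMSO and 359, 429, 425 and 439 CPM in DOX at 3 days. After 6 days the level was 390.05, 389.9, 350.2 and 341 CPM in DMSO and 411, 341, 367 and 365 CPM in DOX. DOX libraries were above DMSO at 3 days and overlapped at 6 days. In edgeR the log2 fold change was 0.31 (SE 0.0723) at 3 days and 0.01 (SE 0.0722) at 6 days, neither called. Xaf1, linked to apoptosis, and Rtp4, a chaperone of receptors that also binds viral RNA, moved from 0.67 to 0.51 and from 0.62 to 0.38, the last with an adjusted p of 0.0659 in edgeR. Ifi35 had 0.46 and 0.54, and it shares 16.79% of its exon bases with Gm11626 on the opposite strand. Samd9l, an inhibitor of viral translation, had -0.05 and -0.04, neither called. Rtp4 shares 13.89% of its exon bases with Gm45338 on the same strand.

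The DOX effect differed between times for a part of the list. The log2 fold change was larger at 6 than at 3 days for 38 of the 50 members. The difference itself, tested in the same edgeR fit without a fold-change threshold, was called for 21 members, 20 with a higher log2 fold change at 6 days and 1, Ifi27, with a lower one. Over all tested genes 7.44% were called with a positive and 9.58% with a negative difference. With a threshold of 1.2 the count was 9, and with limma on log2(TPM + 1) it was 11. The 4 guanylate-binding proteins were all among the 21, as were Trim21 and Trim30a, but not Trim25, and 3 each of the immunity-related GTPases and of the 2-5A synthetase family, whereas 0 of the 4 genes of ISG15 conjugation were. Of those 4, 3 had an unadjusted p under 0.05 in edgeR, and DESeq2 called Isg15, with a smaller effect at 6 days. The calls for Trim21, Trim30a, Oas3 and Oasl2 were lost with limma on log2(TPM + 1) and also with the threshold of 1.2. Those for Adar, Gbp7 and Igtp were lost with the threshold and kept on that TPM scale.

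By p the first 8 were Gbp2 at 0.81 (SE 0.102, adjusted p = 0.00013), Lgals3bp at 0.75, Gbp3 at 0.76, Irgm2 at 0.51, Oas2 at 0.59, Ifi203 at 0.90, Adar at 0.49 and Gbp6 at 0.63, as log2 differences of the edgeR fold changes, 6 days minus 3 days. The difference has 2 parts, the change in DOX and the change in DMSO over the same days. Among the 20 with a positive difference, DOX was higher at 6 than at 3 days for 20 and DMSO was lower at 6 days for 17. These members were picked by the difference of the 2 parts, so both counts follow in part from that choice. Over all 50 members DMSO was lower at 6 days for 31, and over all tested genes for 6572 of 13234. The change in DMSO was called for 0 members, and the change in DOX from 3 to 6 days was not tested. For Gbp2 the change from 3 to 6 days was 0.50 in DOX and -0.31 in DMSO on the log2 scale, for Irgm2 0.42 and -0.09, and for Gbp6 0.55 and -0.08. Parp14 and Oas3 moved little in DOX, by 0.09 each, and more in DMSO, by -0.36 and -0.20. Ifi27 had a difference of -0.30 (SE 0.102, adjusted p = 0.049) in edgeR, a call that was lost with the replicate number as a block (adjusted p = 0.0805), without robust estimation (0.0524), with the GC content and length offset (0.27, with the difference at -0.09) and in 12 of the 16 fits without 1 library. Calls for Dhx58 and Oasl2 were lost in 11 and 10 of those 16 fits.

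**Figure D4:**
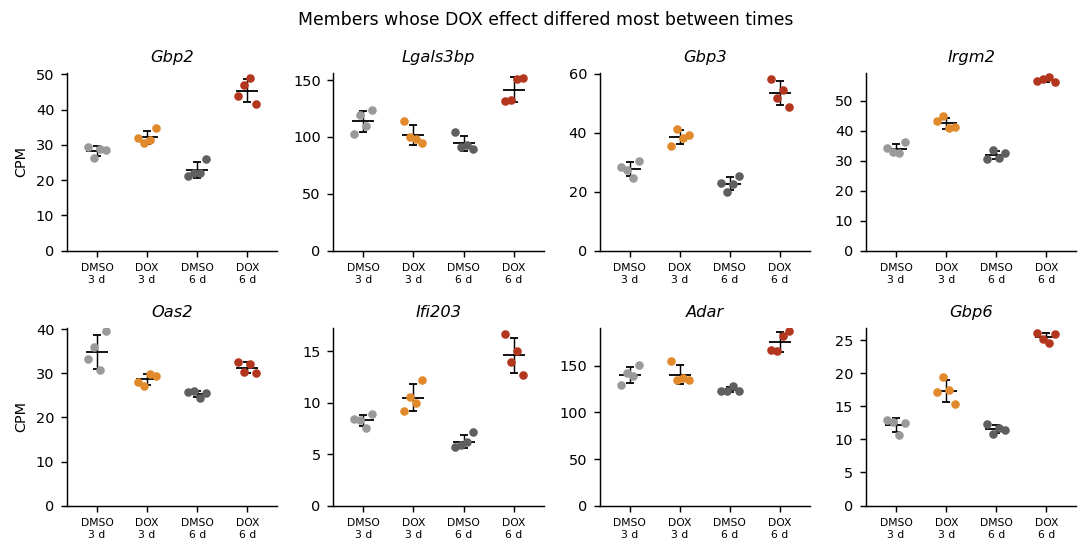
CPM (vertical axis from 0) of the 8 members with the smallest p for a difference between the DOX effects at 6 and 3 days, in each library by group. Points are libraries, short lines are means and bars are 1 SD. The gap between DOX and DMSO is wider at 6 days for Gbp2, Gbp3, Gbp6, Irgm2 and Ifi203. For Adar and Lgals3bp the groups overlap at 3 days, with DOX lower on average for Lgals3bp, and DOX lies above DMSO at 6 days. For Oas2 DOX lies below DMSO at 3 days and above it at 6 days.

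Genes around the effectors were read from lists of interferons, receptors, signalling proteins, transcription factors, sensors and antigen presentation, 56 genes of which 43 could be tested. The test called 7 of them higher at 3 days and 18 at 6 days, and 1 lower each time, with medians of 0.01 and 0.24 on the log2 scale. Of all tested genes 5.30% were called higher and 7.22% lower at 3 days, and 10.0% and 11.6% at 6 days. The medians of all tested genes were 0.0031 and -6e-04. On log2(TPM + 1) with limma the counts of higher genes were 0 and 8. Of 14 interferon genes 1 could be tested, Ifnb1, at 1.51 and 1.78 TPM in DMSO and DOX at 3 days and 1.89 and 2.26 TPM at 6 days, and it was not called (0.42 and 0.33). Its counts ran from 11 to 31 per library. The other 13, interferon gamma among them, were at or near 0, with group means of at most 0.307 TPM.

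Of 6 receptor genes 1 was higher at both times, Ifnar2, a chain of the type I receptor, at 0.41 and 0.46. Among genes of receptor signalling Stat2 was higher at 6 days (0.46), and the kinase gene Jak2 was lower at 6 days (-0.40), a call absent with DESeq2 and when DMSO replicate 2 or 4 was left out. Of 8 interferon regulatory factors 2 were higher at 3 days and 3 at 6 days, which were Irf7, the amplifier of type I interferon production, at 0.57 and 0.85 (SE 0.0721, adjusted p = 1.65e-07) in edgeR, Irf9, a DNA-binding part of the complex that recognises the ISRE, at 0.49 and 0.55, and at 6 days Irf5 at 0.58. Irf1 was not called (-0.03 and 0.06). Of 10 sensors and adaptors 1 was higher and 1 lower at 3 days and 4 were higher at 6 days. Zbp1, a sensor of Z-form nucleic acid, went from 0.25, not called, to 1.31 (SE 0.128, adjusted p = 3.46e-07) in edgeR, and Ifih1 (MDA5) rose by 0.48 and 0.75. The RNA sensors Ddx58 (RIG-I) and Tlr3 were called at 6 days and not at 3 days (0.47 and 0.56). Ikbke was lower at 3 days (-0.42), which DESeq2 did not call and which was lost when DOX replicate 2 or 3 was left out.

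Genes of antigen presentation were called more often at 6 than at 3 days. Of 10 genes of MHC class I and peptide loading 2 were higher at 3 days, Tap1 and Psmb9, and 8 at 6 days. Nlrc5, the transactivator of class I genes, had 0.24 at 3 days, not called, and 1.48 (SE 0.135, adjusted p = 9.10e-08) at 6 days in edgeR. Tap1, a subunit of the peptide transporter, rose by 0.47 and 1.30, and its partner Tap2 by 0.77 at 6 days. The heavy chains H2-K1 and H2-D1 had 0.12 and 0.09 at 3 days, not called, and rose by 0.84 and 0.67 at 6 days. H2-K1 stood at 513 and 510.1 TPM in DMSO and DOX at 3 days and at 497 and 897 TPM at 6 days. The difference between times was called for 6 of these 10 genes and for 14 of all 43, each with a higher log2 fold change at 6 days, which for Ikbke is a value nearer to 0. The share of all tested genes called with a positive difference was 7.44%.

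**Figure D5:**
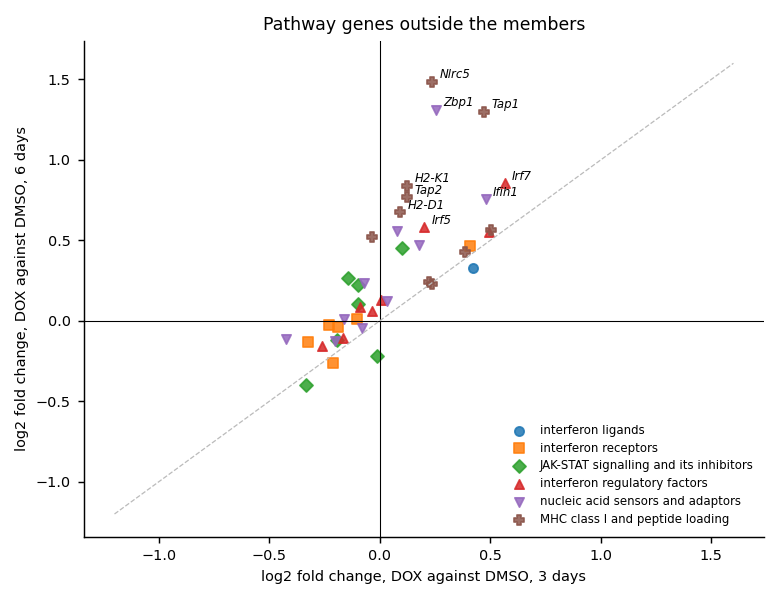
Log2 fold change of DOX against DMSO at 3 days (horizontal axis) and 6 days (vertical axis) for the tested genes of the interferon pathway that are not members, 1 left out, by list. The dashed line marks equal change at both times, and named genes are among those called at either time with the largest change at 6 days, up to 1.48 for Nlrc5.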

How the data were processed

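Poly(A) RNA from mIMCD3 cells was sequenced as directional libraries with 2 × 75 bp reads in 16 libraries, 4 per group. The authors aligned reads to mouse GRCm38.p6 with STAR and quantified genes with Salmon 0.14.10 (per the labels). The strand setting of the quantification is not given in the sources used here. They deposited estimated counts per gene, not normalized, and a table of TPM, which divides by transcript length and scales to the library. All 54393 gene IDs matched GENCODE M21. Of these genes 1039 are not in the TPM table.

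The estimated counts were rounded, and a gene was tested if 4 or more libraries reached 1 CPM, as 13234 genes did. CPM were scaled with TMM factors. A mean per group was fitted to all 16 libraries with edgeR 4.0.16 (R 4.3.3; robust quasi-likelihood), and DOX was compared with DMSO at each time against a fold change of 1.2 with glmTreat. The difference of the DOX effects was tested with glmQLFTest without a threshold. Tests were two-sided and p-values were adjusted by Benjamini-Hochberg over all 13234 genes, with calls at an adjusted p under 0.05. SEs were derived as |log2 fold change|/√F of the quasi-likelihood test. The script was tested on simulated counts. A value of 0 in a library would allow up to 3 counts, between 0.125 and 0.177 CPM, and this covers counting error only.

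Members and gene lists were chosen with earlier results of these data known. Every member is named. Library values are given for up to 12 members called at both times with the largest change at 6 days, up to 8 called for the difference by p, and the 3 with the highest TPM in DMSO. No member was called against the direction of the others at 3 or 6 days. Of the pathway genes, the 10 called ones with the largest change at 6 days are named by rule, except 1 that is not reported here, and others as examples chosen after their values were seen. Alternatives were DESeq2 1.42.0, limma 3.58.1 on log2(TPM + 1) and log2(TPM + 0.1), RLE size factors, other filters, no robust estimation, the 8 libraries of a comparison, other thresholds, a replicate block and leaving out each library. An offset for GC content and length, equal library medians of TPM, the alternatives for the pathway counts, and the TPM scales and sign counts for single members were added after the data were seen. Promoters come from RefSeq (GRCm38.p6).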

Additional observations from a re-analysis of the deposited data

Results flagged for a closer look

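The DOX effect differed between 6 and 3 days, by edgeR's test of the difference itself, for 21 members. Of these, 11 were also called with limma on log2(TPM + 1) and 9 with a threshold of 1.2. As log2 fold change at 6 days minus that at 3 days, the guanylate-binding proteins had 0.81 (Gbp2), 0.76 (Gbp3), 0.63 (Gbp6) and 0.53 (Gbp7). Immunity-related GTPases had 1.203 (Iigp1), 0.51 (Irgm2) and 0.36 (Igtp), and Mx1, on counts under 100, had 1.75. The 2-5A synthetase family had 0.59 (Oas2), 0.31 (Oasl2) and 0.29 (Oas3), and Ifit2 had 0.43. Sensors and modifiers of double-stranded RNA had 0.49 (Adar) and 0.30 (Dhx58), and Trim30a and Trim21 had 0.50 and 0.45. The remaining positive differences were 0.90 for the DNA-binding Ifi203, 0.75 for Lgals3bp, 0.46 for Parp14 and 0.39 for Cmpk2. Ifi27 had the only negative one, -0.30, which was -0.09 and not called with an offset for GC content and length.

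In 8 of 88 groups of 4 libraries (21 members given by library, with the score of all members) 1 library stood far from the other 3, where chance alone flags about 1 in 20 groups. With DOX at 6 days replicate 1 was the highest for Ifi44 at 422 CPM and for Mx2 at 56.6 CPM. With DMSO at 6 days Mx2 was highest in replicate 1 at 39.0 CPM, Gbp2 in replicate 4 at 26.1 CPM and Adar in replicate 3 at 128 CPM, while Oas2 was lowest in replicate 3 at 24.4 CPM. At 3 days Oas1g was highest in DMSO replicate 1 at 32.1 CPM and Adar in DOX replicate 1 at 155 CPM. Each of these libraries stayed in every fit reported as main result, and for Adar at 3 days the log2 fold change was -0.05 without that library.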

How the results depend on the processing

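The count of members higher in DOX stayed within 1.5 times the reported 23 at 3 days and 38 at 6 days under RLE size factors, DESeq2 (18 and 34), both filters, no robust estimation, 8 libraries, the GC content and length offset, no fold-change threshold (32 and 42) and, leaving out 1 library, 21 to 23 and 36 to 39. On log2(TPM + 1) limma called 4 and 25, and on log2(TPM + 0.1) 5 and 26. On log2(TPM + 1) the share of all calls that were higher was 12.4% at 3 days against 42.3% on counts, and 28.8% at 6 days against 46.4%. Without the fold-change threshold 2 members were lower at each time and 4 differed between the DMSO groups. For the difference between times the count of 21 became 11 with limma on either TPM scale, 13 with library medians aligned and 9 with a threshold of 1.2, and leaving out 1 library gave 16 to 28. Its share of higher calls over all genes was 43.7%, against 28.3% with aligned medians and 55.4% without a filter. Pathway genes higher at 3 days, 7, became 0 on both TPM scales, 3 with aligned medians and 11 without a threshold, and those higher at 6 days, 18, became 8 and 9 on TPM. The 1 pathway gene lower at 3 days was lost (0) with DESeq2, limma on log2(TPM + 1) with or without aligned medians, no filter and the offset with or without the block, became 9 without a threshold, and ranged from 0 to 1 without 1 library. The 1 lower at 6 days behaved alike, with 0 also on log2(TPM + 0.1), 3 without a threshold and 0 to 1 without 1 library. Over all alternatives the log2 fold change of 9 members at 3 days and 4 at 6 days changed sign, on values between -0.18 and 0.19 that were called neither on counts nor under the alternative. At 3 days 7 of these changed sign on log2(TPM + 1), Adar, Gbp2, Ifit3, Ifit3b, Isg20, Parp14 and Trim25. Of the members given by library, Adar at 3 days (0.01) became -0.129 and -0.1321 on the TPM scales and -0.0067 with 1 CPM in all 16 libraries, and -0.0457 to 0.042 without 1 library. Gbp2 at 3 days (0.19) became -0.002 and -0.0022 on TPM, and Ifi27 at 6 days (0.01) became -0.0201 on both, -0.0021 with that filter, and -0.0415 to 0.0504 without 1 library. Same-numbered libraries did not deviate together on average. Mean correlations were -0.0955 for DMSO and DOX at 3 days, -0.121 for DMSO and DOX at 6 days and -0.113 for the DMSO groups. The DOX groups were not set against each other. Whether same-numbered libraries share a culture or date cannot be told from these values. A replicate block gave 23, 38 and 21 calls, the last sharing 20 with the fit without the block. The causes were not tested. Counts as low as 16 limit the precision for Mx1.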
